A study of Mus musculus with 44 samples.

Results

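The 10 genes described here are Tmod4, Camsap3, Fez1, Sec23a, Gramd2, Mlkl, Kcnip2, 4931408C20Rik, 1110032A03Rik and Nudt16l2. They were picked because their RNA was lower in germ cells that carried a tagged copy of the histone TH2B than in wild-type cells. The 10 genes have 20 probes on an Illumina mouse BeadChip that covers 19057 named genes. Of these probes, 16 were above background on at least 5 of 44 arrays, and every one of the 10 genes had such a probe. All values below are log2 intensities after background correction and quantile normalization, and a probe was called above background on an array when its deposited detection p was under 0.05. The genes were chosen by the difference in array intensity between tagged and wild-type cells of experiment 1, so the values of that comparison are given as a description without a test.

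Total RNA of spermatocytes, which are in meiosis, and of round spermatids, which have completed it, was taken from testes of adult mice. Experiment 1 held wild-type mice and heterozygous Th2b+/tag mice, whose TH2B ended at its C terminus in His, Flag and Ha tags, with 6 arrays per genotype and cell type. Experiment 2 held wild-type mice and mice labelled Th2b kd, stated to express no TH2B, with 5 arrays per genotype and cell type. The tagged mice still had an untagged allele, every group came from the same organ and adult stage, and no treatment was named. The genotype field of the labels names brdt, so genotypes were taken from the array titles, and the sources used here do not give the method of cell purification. The series' text calls the arrays biological replicates, and p-values measure the spread between them.

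TH2B is a histone H2B variant made in the testis, where it takes the place of most other H2B from the spermatocyte stage on. Round spermatids are haploid cells with high transcription, and they switch on a large set of genes before histones give way to transition proteins and then protamines. Nucleosomes that hold an altered H2B can be more or less stable, and transcription of single genes in spermatids is set by promoter-bound factors such as CREM, which binds cAMP response elements.

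On the arrays, 15997 to 19348 probes were above background. The list of round spermatid markers (17 of 20 tested) had a mean log2 intensity of 12.3 to 12.7 on the arrays of spermatids in experiment 1 and of 12.5 to 12.6 in experiment 2. On spermatocyte arrays the same mean spread from 10.3 to 12.4, and 4 of them lay nearest to spermatids, namely replicate 1 of the wild type and both replicate 1 and replicate 2 of the tag in experiment 1, and kd replicate 1 in experiment 2. No gap set these 4 arrays apart. The lowest of them, kd replicate 1, was at 11.54, and wild-type replicate 2 of experiment 1 followed at 11.52. All 17 of these markers were above background on every array of each spermatocyte group too, and whether that RNA came from spermatids among the cells was not tested. In bulk RNA, fewer cells of a type and less RNA per cell cannot be told apart. The single H2bc1 probe, for the TH2B gene, was above background on 0 of 22 wild-type arrays. It was above background on 5 of 5 kd spermatocyte arrays, at 6.61 ± 0.50 (SD, n = 5) against 4.61 ± 0.13 (SD, n = 5) in wild type, and on 1 of 5 kd spermatid arrays, at 4.93 ± 0.23 (SD, n = 5). With the tag it was above background on 0 of 6 spermatocyte and 1 of 6 spermatid arrays. The position of that probe in the transcript is not given, so it checks neither the tag nor the loss of TH2B, and "kd" is used below as the label of those libraries.

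Promoter sequences of 3 of the genes are shown, each for its own reason. Tmod4 had the largest fitted difference in tagged spermatids after background correction. Fez1 was the member whose upstream windows held part of a cAMP response element, and Nudt16l2 kept its rise between stages in tagged cells. The rank of Tmod4 did not hold without background correction, where its difference was -2.48. That of Nudt16l2 stayed between -3.38 and -2.83 under every other way of processing tried. Each sequence is the 250 bases before an annotated start, from RefSeq on build GRCm38.p6, written 5′ to 3′ on the strand of the gene, with capitals marking TGACG, the 5-base core of the cAMP response element. They lie at chr3:95124264-95124513 (plus strand), chr9:36832490-36832739 (plus strand) and chr9:105145083-105145332 (minus strand).
Tmod4: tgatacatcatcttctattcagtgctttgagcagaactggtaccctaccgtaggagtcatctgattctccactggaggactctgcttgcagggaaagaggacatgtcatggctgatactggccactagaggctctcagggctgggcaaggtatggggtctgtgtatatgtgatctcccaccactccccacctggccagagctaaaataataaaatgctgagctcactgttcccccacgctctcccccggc
Fez1: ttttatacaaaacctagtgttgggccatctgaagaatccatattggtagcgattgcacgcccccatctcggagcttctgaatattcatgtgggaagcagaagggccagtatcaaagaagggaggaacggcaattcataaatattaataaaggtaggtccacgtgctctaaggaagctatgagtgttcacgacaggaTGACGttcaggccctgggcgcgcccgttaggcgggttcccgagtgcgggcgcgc
Nudt16l2: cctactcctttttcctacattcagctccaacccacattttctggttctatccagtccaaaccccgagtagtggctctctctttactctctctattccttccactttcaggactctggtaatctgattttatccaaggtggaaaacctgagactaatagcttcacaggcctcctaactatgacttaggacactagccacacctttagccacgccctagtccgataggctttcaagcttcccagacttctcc

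RefSeq gave 14 such windows for 9 of the 10 genes, and none was used for Camsap3. TGACG, searched on both strands, was in 2 of the 14 windows, both of Fez1, with the match 52 bases before the start in the window printed above. It was in 17.8% of all 32851 windows of the same length. The full element TGACGTCA, which contains TGACG, was in 0 of the 14 windows and in 1.55% of all windows. GTTGCC, part of the X-box bound by RFX factors, was in 2 windows (of Fez1 and Gramd2) and in 10.4% of all windows. ACAAT, the core read by SOX factors, was in 6 windows of 5 of the genes and in 27.7% of all windows. The GC content of the 14 windows ran from 41.6% to 66.8% with a median of 51.8%, and the median of all windows was 52.4%. These matches describe letters and not bound sites, and nothing about a factor follows from a window without one.

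In wild-type cells, the RNA of all 10 genes rose from spermatocytes to round spermatids. In experiment 2, which did not choose the genes, all 10 were higher in wild-type spermatids than in wild-type spermatocytes, with a median fitted difference of 2.18 on the log2 scale and with every spermatid array above every spermatocyte array for each gene, as in 23.5% of all genes. All 10 passed limma's moderated test with Benjamini-Hochberg adjustment over 12260 genes, with adjusted p from 4.3e-13 to 5.1e-07, while 26.9% of all genes were called higher and the median of all genes was -0.05. A large fall in tagged spermatids needs a high level in wild-type spermatids. The choice of the genes therefore favoured a rise between stages in this experiment too, although its arrays were not used. For the 9 genes above background on every array of both stages, the rise ran from 1.52 ± 0.24 (SE) for Sec23a to 3.31 ± 0.35 (SE) for Nudt16l2. Camsap3 was above background on 0 of 5 wild-type spermatocyte arrays there, so its rise is known only to be at least 1.80-fold. In kd-labelled mice all 10 rose as well, with a median fitted difference of 2.27, by 1.68 (Sec23a) to 3.38 (Nudt16l2) in 9 genes and by at least 1.23-fold in Camsap3, where 26.8% of all genes were called higher and 21.6% were separated in this direction. In the wild type of experiment 1, which shares arrays with the choice of the genes, the differences ran from 1.69 to 2.57, with a median of 2.19, and 9 of the 10 were separated, beside 15.9% of all genes.

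With the tag, the stages of most of the 10 genes overlapped, and 4 of these genes were near background at both stages. These 4 were Tmod4, Camsap3, Mlkl and Kcnip2, above background on 0 to 2 of 6 tagged spermatid and 0 to 3 of 6 tagged spermatocyte arrays, so that a difference near 0 is given by the floor and by the choice of the genes. In tagged mice the spermatid mean minus the spermatocyte mean ran from -0.09 to 2.22, with a median of 0.35, and the arrays of the stages overlapped for 8 of the 10, where 17.5% of all genes were separated with spermatids higher. Nudt16l2 (2.22) and 1110032A03Rik (2.21) were the exceptions, since their stages did not overlap and their differences stood beside 2.13 and 2.57 in the wild type of the same experiment. 4931408C20Rik lay between, at 0.74 with the tag and 1.80 in wild type. Sec23a, measured on every array, differed by 0.15 with the tag and by 1.69 in wild type. Without the 4 spermatocyte arrays nearest to spermatids, the values with the tag ran from -0.17 to 2.54 with a median of 0.42.

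**Figure D1:**
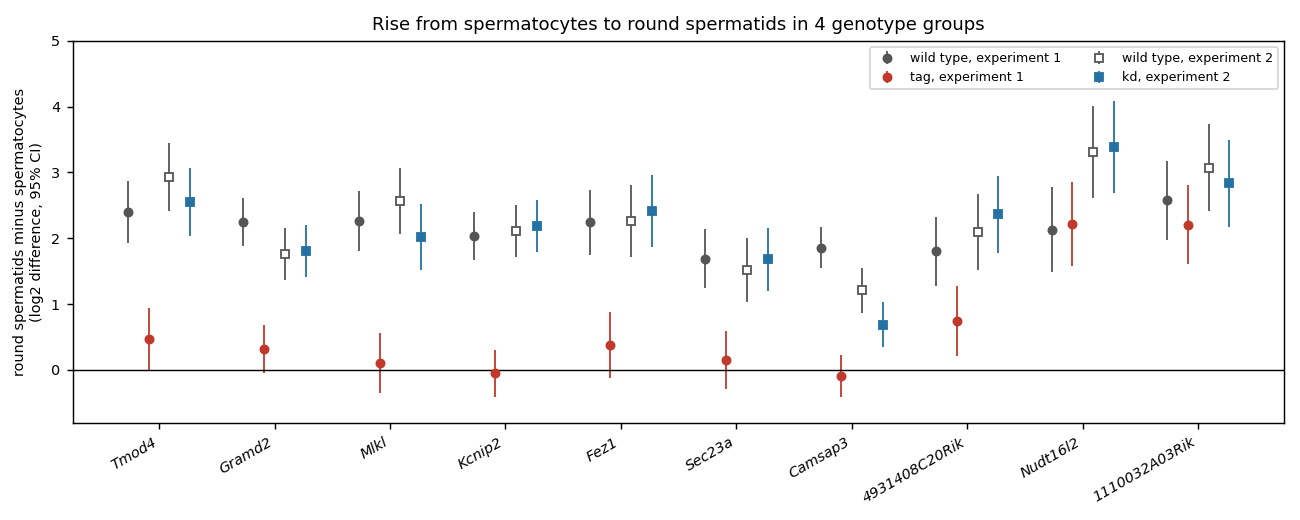
Round spermatid mean minus spermatocyte mean (log2) for each of the 10 genes in 4 genotype groups. Points are fitted differences and lines their 95% confidence intervals, from 6 arrays per group in experiment 1 and 5 in experiment 2. Arrays of experiment 1 chose the genes, so intervals of its wild type and tag describe the fit and are no test. Tag points lie near 0 for most genes, among them Tmod4, Camsap3, Mlkl and Kcnip2 with both stages near background, and near the wild type for Nudt16l2 and 1110032A03Rik.

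Against wild type, 9 of the genes had fitted differences in tagged spermatids of -2.96 (Sec23a) to -4.12 (Tmod4) on the log2 scale, and Camsap3, above background on 0 of 6 tagged arrays, was at least 3.84-fold lower. The median of the 10 was -3.10, and the median of all genes was -0.04. For all 10 the highest tagged spermatid array lay below the lowest wild-type one. Of all 12260 genes, 3.91% were separated in this way, and 6.71% were called lower, from which nothing is read for the 10 genes. In spermatocytes the fitted differences ran from -3.14 (Nudt16l2) to -0.50 (Camsap3), with a median of -1.57, and 8 of the 10 were separated, where 0.546% of all genes were separated and 1.22% were called lower. Mlkl and Camsap3 were the genes whose spermatocyte arrays overlapped. Without the 4 spermatocyte arrays nearest to spermatids, the spermatocyte differences ran from -3.14 to -0.33, with a median of -1.39. Genes outside the list lay between the fitted spermatid difference of Sec23a and that of Camsap3 (-2.44), among these Lrrc57 at -2.76 and Unc93a at -2.73, so that the list is not bounded by size alone.

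**Figure D2:**
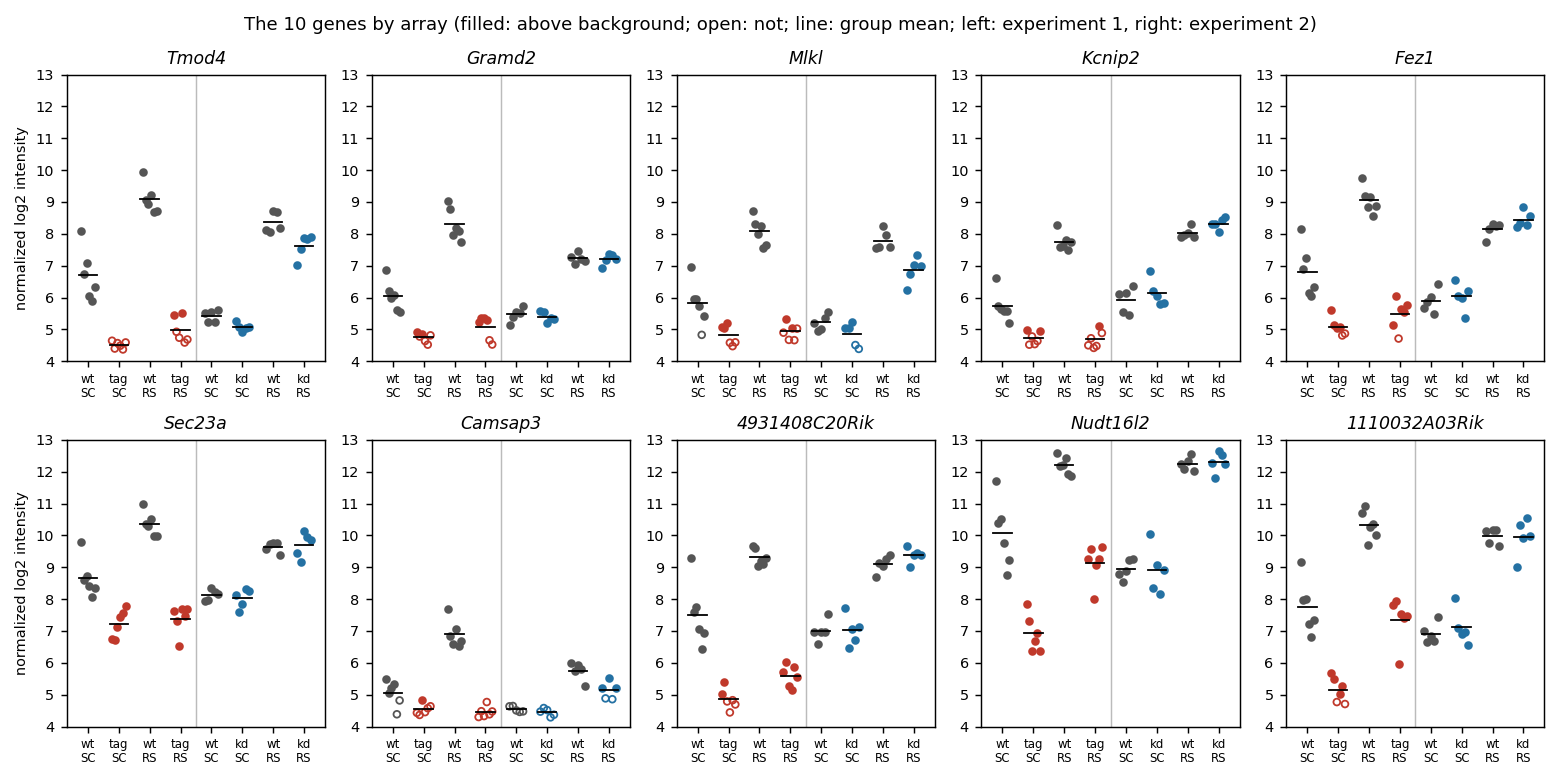
Normalized log2 intensity of each of the 10 genes on every array, through the brightest kept probe, by genotype (wt, tag, kd) and cell type (SC spermatocytes, RS round spermatids). Filled points were above background, open points were not, and lines are group means; in tagged spermatids Tmod4, Mlkl, Kcnip2 and Camsap3 have open points on at least 4 of 6 arrays, while Sec23a and Nudt16l2 have none.

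Tmod4 and Camsap3 encode proteins that hold the ends of cytoskeletal filaments. Tmod4 is a tropomodulin, which caps the pointed end of actin filaments and is best known from skeletal muscle. In experiment 1 its wild-type spermatid arrays ran from 8.69 through a median of 9.00 to 9.96, and its tagged ones from 4.59 through 4.83 to 5.51. The tagged arrays were near the background level, with 2 of 6 above it. The fitted difference was -4.12 ± 0.23 (SE), and it was -2.48 without background correction. In spermatocytes the wild-type arrays ran from 5.88 through 6.54 to 8.08 and the tagged ones from 4.37 through 4.53 to 4.64, where 0 of 6 were above background. This makes the level in wild-type spermatocytes at least 3.61-fold higher, counted against the lowest signal above background of each tagged array. Of the other kept Tmod4 probes, 1 was above background on 6 of 6 wild-type and 0 of 6 tagged spermatid arrays, and 1, above background on 2 of 6 tagged arrays, had a fitted difference of -4.09.

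Camsap3 binds the minus ends of microtubules that are not anchored at a centrosome. In wild-type spermatids it ran from 6.53 through 6.76 to 7.70, and in tagged ones from 4.30 through 4.43 to 4.77, with 0 of 6 above background. The level in wild type was at least 3.84-fold higher. In spermatocytes the gene was close to background in every group, with 4 of 6 wild-type and 1 of 6 tagged arrays above it in experiment 1 and 0 of 5 in each genotype of experiment 2.

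Fez1, Sec23a and Gramd2 act in transport and at membranes. Fez1 links cargo to kinesin and is known from axonal transport in neurons. Its wild-type spermatid arrays ran from 8.54 through 9.00 to 9.75 and its tagged ones from 4.71 through 5.59 to 6.05, a difference of -3.58 ± 0.25 (SE). The groups were far apart, yet 5 of the 6 tagged arrays were still above background. In spermatocytes Fez1 ran from 6.05 to 8.15 in wild type and from 4.81 to 5.62 with the tag.

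Sec23a is an inner subunit of the COPII coat, which forms vesicles that leave the endoplasmic reticulum. Wild-type spermatid arrays of Sec23a ran from 9.98 through 10.3 to 11.0, and tagged ones from 6.52 through 7.55 to 7.70. It was above background on every one of the 44 arrays, so that a residual level was measured with the tag. That level did not differ much between stages, at 7.23 ± 0.44 (SD, n = 6) in tagged spermatocytes and 7.39 ± 0.45 (SD, n = 6) in tagged spermatids, against 8.66 ± 0.60 and 10.4 ± 0.37 (SD, n = 6 each) in wild type.

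Gramd2 has a GRAM domain and sits at contacts between the endoplasmic reticulum and the plasma membrane. Gramd2 ran from 7.75 through 8.14 to 9.04 in wild-type spermatids and in tagged ones from 4.52 through 5.26 to 5.35, with 4 of 6 above background. The difference was -3.23 ± 0.18 (SE) in spermatids and -1.30 ± 0.18 (SE) in spermatocytes. Its other kept probe was above background on 1 of 6 tagged spermatid and 0 of 6 tagged spermatocyte arrays, with a fitted difference of -3.05 in spermatids.

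Mlkl and Kcnip2 belong to signalling at membranes. Mlkl is the pseudokinase that permeabilizes the plasma membrane in necroptosis. Its wild-type spermatid arrays ran from 7.55 through 8.12 to 8.71, and its tagged ones from 4.66 through 4.96 to 5.32, with 2 of 6 above background. The difference was -3.14 ± 0.23 (SE) in spermatids, and it was -0.99 ± 0.23 (SE) in spermatocytes, where the groups overlapped. Kcnip2 is a calcium-binding subunit of Kv4 potassium channels, known from heart and neurons. Its wild-type spermatid arrays ran from 7.51 through 7.68 to 8.27 and its tagged ones from 4.42 through 4.61 to 5.10, with 1 of 6 above background. Both tagged stages were near background, with 2 of 6 spermatocyte and 1 of 6 spermatid arrays above it, at 4.74 ± 0.21 (SD, n = 6) and 4.68 ± 0.27 (SD, n = 6).

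The remaining 3 genes had measurable RNA in tagged spermatids on 6 of 6 arrays through the brightest kept probe. 4931408C20Rik, which has no described role here, ran from 9.03 through 9.25 to 9.67 in wild-type spermatids and from 5.16 through 5.64 to 6.03 in tagged ones. Its difference was -3.72 ± 0.26 (SE) in spermatids and -2.66 ± 0.26 (SE) in spermatocytes, where 2 of 6 tagged arrays were above background. 1110032A03Rik, listed with the synonym c11orf1, ran from 9.70 through 10.3 to 10.9 in wild-type spermatids and from 5.98 through 7.50 to 7.94 in tagged ones. Its level in tagged spermatocytes was 5.15 ± 0.39 (SD, n = 6), against 7.36 ± 0.71 (SD, n = 6) in tagged spermatids.

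Nudt16l2 is named for its likeness to Nudt16, a Nudix hydrolase, and its own role is not described here. Its wild-type spermatocyte arrays ran from 8.76 through 10.1 to 11.7 and its tagged ones from 6.36 through 6.82 to 7.84. Its wild-type spermatid arrays ran from 11.9 through 12.2 to 12.6 and its tagged ones from 8.02 through 9.26 to 9.64. The difference was nearly the same in both cell types, at -3.14 ± 0.32 (SE) in spermatocytes and -3.06 ± 0.32 (SE) in spermatids, and every tagged array was above background. Through the brightest kept probe, RNA of Nudt16l2, Sec23a, 1110032A03Rik and 4931408C20Rik was still detected on every tagged spermatid array. The word lost would overstate their difference. This is less sure for 4931408C20Rik, whose other kept probe was above background on 3 of 6 of these arrays. The remaining 6 genes had 0 to 5 of 6 tagged spermatid arrays above background.

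Of the 4 probes that were not kept, 3 (1 of Mlkl and 2 of Kcnip2) were above background on 0 arrays and 1 of 1110032A03Rik on 1 array. Differences between tag and wild type were between -0.10 and 0.00 for these probes, which give no measured level of their genes. Tmod4, Gramd2, Fez1, 4931408C20Rik and Nudt16l2 each had more than 1 kept probe, and each of these probes was lower with the tag in both cell types.

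The tag was compared side by side with the kd label, which did not choose the genes. In spermatocytes 0 of the 10 genes passed the test between kd and wild type by limma, and 0 had an unadjusted p under 0.05. The differences ran from -0.37 (Mlkl) to 0.22 (Kcnip2), while 191 of 12260 genes (1.56%) were called in either direction and 1555 had an unadjusted p under 0.05. The 95% confidence intervals of the 10 genes reached from -0.88 (Mlkl) at the lowest to 0.86 (1110032A03Rik) at the highest. The median difference of the 10 genes was -0.05, and it was -0.12 without the 4 spermatocyte arrays nearest to spermatids. Markers of peritubular and vascular cells moved with the kd label in spermatocytes, where 5 of 10 were called higher and the list's mean ran from 6.11 to 7.30 against 5.22 to 5.93 in wild type. Of 17 round spermatid markers 0 were called there, with a median difference of 0.31. The part of either marker list in these values was not tested.

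In spermatids 2 of the 10 genes, Mlkl and Camsap3, were lower with kd, where 1.2% of all genes were called lower and 1.89% in either direction. Mlkl measured 7.54, 7.57, 8.25, 7.95 and 7.59 in the wild-type arrays and 6.23, 6.73, 7.03, 7.35 and 7.00 in the kd arrays. Every kd array lay below every wild-type array, and the difference was -0.91 ± 0.25 (SE), or 1.88-fold, with an adjusted p of 0.039 by limma. Camsap3 measured 5.99, 5.75, 5.94, 5.80 and 5.28 in wild type and 5.22, 4.88, 5.51, 4.86 and 5.20 with kd. The groups overlapped through wild-type replicate 5 and kd replicate 3, 3 of 5 kd arrays were above background, and the difference was -0.62 ± 0.17 (SE), with an adjusted p of 0.044 by limma. Tmod4 measured 8.12, 8.05, 8.72, 8.70 and 8.19 in wild type and 7.01, 7.51, 7.86, 7.84 and 7.90 with kd. Its groups did not overlap either, and 3.02% of all genes were separated with kd lower, but the difference of -0.73 ± 0.25 (SE) did not pass, with an adjusted p of 0.16 by limma.

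The calls lay near the threshold in the main fit. With 1 of the 10 spermatid arrays of experiment 2 left out, the difference of Mlkl ran from -1.03 to -0.75 and its adjusted p by limma from 0.023 to 0.192, and it passed in 2 of 10 cases (without wild-type replicate 1 or kd replicate 4). Camsap3 ran from -0.74 to -0.55, with an adjusted p from 0.0159 to 0.143, and passed in 2 of 10 cases (without wild-type replicate 5 or kd replicate 3). Tmod4 passed in 0 of 10 cases, with an adjusted p from 0.156 to 0.485. Under 13 other settings Tmod4 passed in 5, with an adjusted p from 0.0124 to 0.258 by limma, the lowest in a fit of experiment 2 alone. The main fit took 1 spread per gene from the arrays of both experiments. Under other settings Mlkl passed in 12 of 13, with an adjusted p from 0.00097 to 0.066 by limma. Camsap3 passed in 7 of 12, from 0.0068 to 0.259.

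The other 7 genes differed little between kd and wild-type spermatids. Their differences ran from -0.03 (1110032A03Rik) to 0.30 (Kcnip2), with adjusted p from 0.67 to 0.99 by limma. The widest 95% confidence interval was that of Nudt16l2, from -0.65 to 0.75, beside a tag difference of -3.06 in experiment 1. Kcnip2 measured 7.90, 7.98, 8.03, 8.31 and 7.90 in wild type and 8.29, 8.32, 8.06, 8.42 and 8.53 with kd, so the arrays overlapped. The difference of the kd effect between the cell types was called for 0 of the 10 genes and for 6 of all genes (0.0489%), and 1 of the 10, Camsap3, had an unadjusted p under 0.05 in this test by limma. The tag and kd effects come from different experiments with their own wild types, and their difference was not tested.

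**Figure D3:**
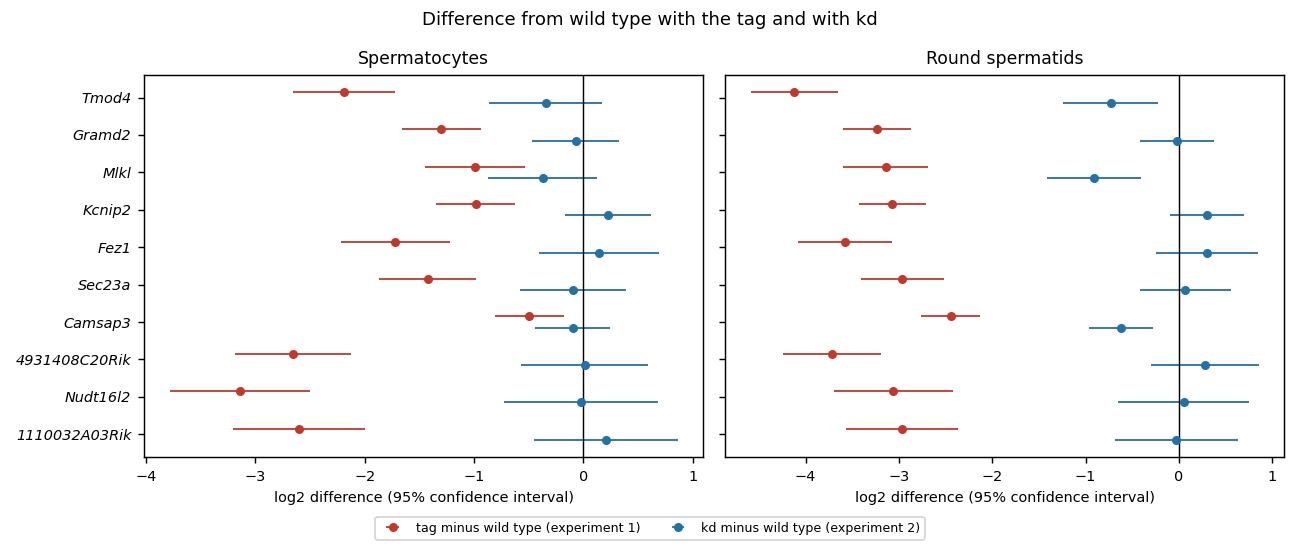
Difference from wild type (log2) of each of the 10 genes with the tag in experiment 1 and with the kd label in experiment 2, in spermatocytes on the left and round spermatids on the right. Points are fitted differences and lines 95% confidence intervals. The tag comparison chose the genes, so its intervals describe the precision of the fit and are no test. Fitted tag points lie between -4.12 and -0.50, with Camsap3, Tmod4, Mlkl and Kcnip2 near background with the tag, and kd points between -0.91 and 0.30.

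The wild types of the experiments also differed in these genes. In experiment 2, 9 of the 10 were lower than in experiment 1 in wild-type spermatocytes (median -0.59) and 8 of 10 in wild-type spermatids (median -0.53), against medians of all genes of 0.00 and -0.01. The difference for Tmod4 was -1.28 in spermatocytes and -0.74 in spermatids. Camsap3 had 5.75 ± 0.28 (SD, n = 5) in wild-type spermatids of experiment 2 and 6.90 ± 0.44 (SD, n = 6) in those of experiment 1. The wild-type arrays of experiment 1 took part in the choice of the genes, which favoured genes high on them. Lower values in experiment 2 were thus fixed in part by the choice. Experiment, mouse colony and array run cannot be told apart in these values, and no test was made.

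The spermatid content of the arrays was set beside the 10 genes. In tagged spermatocytes the round spermatid marker mean ran from 10.6 to 12.2, and the mean of the 10 genes stayed between 5.13 and 5.49. In wild-type spermatocytes of experiment 1 the marker mean covered 10.5 to 12.4, nearly the same range, and the mean of the 10 genes ran from 6.24 to 8.21. In spermatids the marker mean was 12.4 to 12.7 in wild type and 12.3 to 12.5 with the tag, and the mean of the 10 genes was 8.83 to 9.74 in wild type and 5.40 to 6.17 with the tag. The ranges of the markers overlapped between tagged and wild-type arrays of each cell type, and those of the 10 genes did not. The 10 genes were chosen as lower on these tagged arrays, so their separation was fixed in part by the choice. What part spermatid content had in these values was not tested. Between tagged and wild-type spermatids, 1 of the 17 markers was called lower and 0 higher by limma, beside 6.71% and 9.47% of all genes.

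**Figure D4:**
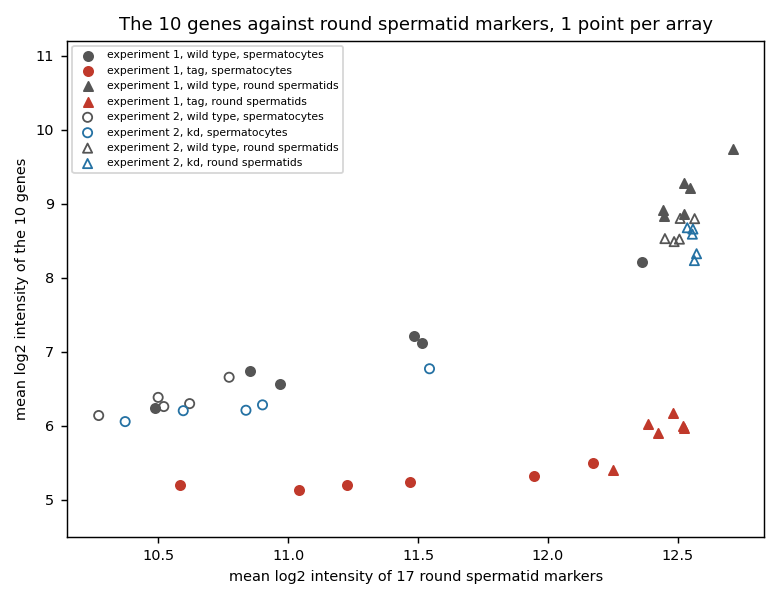
Mean log2 intensity of the 10 genes against the mean log2 intensity of 17 round spermatid markers, with 1 point per array. Circles are spermatocytes and triangles round spermatids, filled for experiment 1 and open for experiment 2. Tagged arrays (red), on which the genes were chosen as lower, lie between 5.13 and 6.17 on the vertical axis.

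Other genes that rose by at least the smallest fitted rise among the 10 were set beside them. Of 1569 other genes that rose by at least 1.21, the fitted value of Camsap3, from spermatocytes to spermatids in the wild type of experiment 2, 240 (15.3%) were called lower with the tag in spermatids and 90 (5.74%) in spermatocytes, beside 6.71% and 1.22% of all genes. The median tag difference of these genes was -0.03 in spermatids and 0.20 in spermatocytes. They were not matched to the 10 in size of rise, since the median rise of the 10 was 2.18. Sec23a, next above Camsap3, rose by 1.52.

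The 10 genes lie on 6 chromosomes. Chromosome 9 holds 4 of them (Fez1, 1110032A03Rik, Gramd2 and Nudt16l2) and 5.7% of the tested genes, chromosome 8 holds Mlkl and Camsap3, and chromosomes 1, 3, 12 and 19 hold 1 each. On chromosome 9, 7.16% of tested genes were called lower in tagged spermatids, beside 6.71% of all genes. The gene of TH2B is on chromosome 13, which holds none of the 10.

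Genes near the 10 on their chromosomes were followed in tagged cells as well. Among 40 tested neighbours, the nearest 2 on each side of each gene, 1 was called lower and 6 higher in tagged spermatids by limma, beside 6.71% and 9.47% of all genes, and their median difference was 0.03. In that comparison 9 of the 40 had an unadjusted p under 0.05 by limma. Nothing about the neighbourhood is read from these counts. A neighbour here is 1 of these nearest tested genes, which need not be adjacent. The starts of neighbour and member lay from 6.92 to 4120.54 kb apart. The lower one was Gm597, whose start lies 2094 kb from that of 4931408C20Rik. Gm597 measured 9.76 in wild-type and 7.45 in tagged spermatids (-2.31 ± 0.23 SE, adjusted p 8.2e-11 by limma) and differed by -0.86 ± 0.23 (SE) in spermatocytes (adjusted p 0.015). The higher ones were Wdr59 near Mlkl (1.10), Pnpla6 near Camsap3 (0.78), Nudt16 near Nudt16l2 (0.70), Vps72 near Tmod4 (0.57), Parp6 near Gramd2 (0.53) and Fgf8 near Kcnip2 (0.49). Nudt16, the Nudix hydrolase beside Nudt16l2, was thus higher, at 6.67 in wild-type and 7.37 in tagged spermatids (adjusted p 0.000185 by limma). In spermatocytes 1 neighbour was higher, Wdr59 (0.51), beside 4.17% of all genes, and with kd 0 of 40 were called by limma in either cell type, where 8 had an unadjusted p under 0.05 in each.

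Genes of the same families and partners were followed from a list of 73, of which 47 were tested. In tagged spermatids 2 of the 47 were called lower and 5 higher by limma, beside 6.71% and 9.47% of all genes, and their median difference was -0.01. Among actin partners of Tmod4, the tropomyosin gene Tpm3 was lower (-1.15 ± 0.21 SE, adjusted p 5.3e-05), and the tropomodulin Tmod2 was higher in tagged spermatocytes by 1.11 ± 0.28 (SE, adjusted p 0.0087). Among Kv4 channel genes, Kcnip3, another channel-interacting protein, was lower (-0.45 ± 0.16 SE, adjusted p 0.049), and Dpp6, a channel subunit, was higher by 1.16 ± 0.24 (SE, adjusted p 0.00023) in spermatids and by 1.35 in spermatocytes.

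The other family genes called in tagged spermatids were higher. They were Disc1 (0.41), a Fez1 partner, Katna1 (0.76), a microtubule-severing katanin subunit, Nudt16 (0.70) and Nudt5 (1.04). None of the 10 tested COPII genes around Sec23a and none of the 7 necroptosis genes around Mlkl was called by limma in either tag or kd comparison, and their medians in tagged spermatids were -0.15 and -0.14. In tagged spermatids 2 of the COPII and 2 of the necroptosis genes had an unadjusted p under 0.05, and in the other comparisons 0 to 2 of each list did. In tagged spermatocytes 3 of the 47 were called, all higher (Tmod2, Dpp6 and Katna1, the last by 0.44), beside 4.17% of all genes called higher and 1.22% lower. With the compared groups alone, 0 were called higher and 1 lower there. With kd, the tropomyosins Tpm1 (1.41) and Tpm2 (1.18) were higher in spermatocytes, as were peritubular and vascular markers. Tpm2 is itself in that marker list, so these are not separate observations. In kd spermatids 0 of 47 were called by limma, and 3 had an unadjusted p under 0.05. With same-numbered arrays as a block, 5 of the 47 were called in tagged spermatocytes and 11 in tagged spermatids.

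Over the 44 arrays Pearson's r between pairs of the 10 genes ran from 0.687 to 0.977, with a median of 0.910. These arrays include those that chose the genes as low with the tag and they share stage differences, so a high r was fixed in part by the choice and is a description. The genes whose profile was nearest to the mean of the 10 were Unc93a (r = 0.979), Mgat4e (0.972), Spata31d1a (0.965), Knstrn (0.960) and Gsdmd (0.950). Their differences in tagged spermatids were -2.73, -2.50, -2.02, -2.19 and -2.47. For single genes, Nudt16l2 was nearest to Prkcd (r = 0.985), 1110032A03Rik to Mgat4e (0.979), Gramd2 and Fez1 to Unc93a (0.974 and 0.967), Sec23a and 4931408C20Rik to Spata31d1a (0.964 and 0.967), and Tmod4 to Gsdmd (0.959). Mlkl was nearest to Pcdha12 (0.957), Camsap3 to 4933433H22Rik (0.946) and Kcnip2 to Smok4a (0.937).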

How the data were processed

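The deposited raw table holds a mean bead intensity per probe and array without normalization, per the file headers and its values, and beside it a deposited detection p-value against negative control beads. The authors' processed intensity table had been quantile normalized on the linear scale without background subtraction, as its values show (array medians of 104.3 to 104.4). Neither the software for these steps nor the scanner settings are named in the sources used here.

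Raw intensities were put through neqc of limma 3.58.1 in R 4.3.3, which corrects background by normexp with the detection p-values, adds an offset of 16, quantile normalizes and takes log2. Probes above background (detection p under 0.05) on at least 5 of 44 arrays were kept, 22605 in all, of which 18813 had 1 gene name. Each of 12260 genes was read through its brightest kept probe. On the array, 34885 probes had 1 gene name, 18 had several and 10378 had none, by the platform annotation. All 44 arrays entered a single linear model with a mean for each of the 8 groups. Tests were two-sided limma moderated tests with Benjamini-Hochberg adjustment over 12260 genes and a threshold of 0.05, and the script was tested on simulated data.

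The members, gene lists, markers and tests were chosen with earlier results of these data known. The tag comparison, and other contrasts of experiment 1 arrays, were given for the 10 genes without a test. Named besides the 10 genes were neighbours past the threshold with the tag, family and partner genes past it with tag or kd, the nearest profiles and the genes just outside the list. A fold counted as "at least" sets the arrays of a group with no signal at each array's lowest signal above background, or at the probe's own value where that is higher. Precision is limited by how many arrays there are and by how far signals rise above background. No arrays held identical raw values.

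Same-numbered arrays of wild type and tag deviated together in each cell type of experiment 1 (r over 0.1 in 6 of 6 pairs). The best match was the same-numbered array in only 3 of 6 cases in spermatocytes and 4 of 6 in spermatids. In experiment 2 this held for the stages of the wild type (5 of 5 pairs, r from 0.19 to 0.35) but not for kd against wild type (3 of 5 pairs in spermatocytes, 1 of 5 in spermatids). Between stages, r was also over 0.1 in 6 of 6 wild-type and 5 of 6 tag pairs of experiment 1 and in 4 of 5 kd pairs. There the same-numbered array was the best match in 5 of 6 wild-type and 2 of 6 tag cases of experiment 1. In experiment 2 this was so in 5 of 5 wild-type and 3 of 5 kd cases. The main fit treated all arrays as separate, so its p-values between stages leave out this pairing. Alternatives changed the background correction, normalization, filter, probe choice, arrays in the fit, weights, block, marker covariate and single arrays.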

Additional observations from a re-analysis of the deposited data

Results flagged for a closer look

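Among 80 groups of arrays (10 genes in 8 groups), 4 held an array that stood apart from its group by Dixon's test at the 95% level, and chance alone would give about 1 in 20. Kcnip2 measured 6.62 on wild-type spermatocyte replicate 1 of experiment 1, with the next array at 5.73. The same array had the highest round spermatid marker mean among spermatocyte arrays, 12.4, and the part of this in its value was not tested. Tagged round spermatid replicate 3 was the lowest of its group for 3 genes. It measured 6.52 for Sec23a (next 7.31), 8.02 for Nudt16l2 (next 9.08) and 5.98 for 1110032A03Rik (next 7.41). Its round spermatid marker mean was the lowest of the tagged spermatid arrays, at 12.3.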

How the results depend on the processing

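No direction of a difference between tag and wild type changed for any of the 10 genes, over 23 to 25 alternatives each. Without background correction, or from the authors' processed values, these differences were smaller, for example -2.48 for Tmod4 in spermatids. The kd calls were the weak ones. Of the 10 genes, 2 were called in kd spermatids, against 1 without background correction, with the authors' processed values, with a stricter filter (which dropped Camsap3), with the compared groups alone and over all kept probes, and 0 without a filter. Leaving out 1 array gave 0 to 1. Mlkl passed under 12 of 13 other alternatives, Camsap3 under 7 of 12 and Tmod4 under 5 of 13. Those 5 were experiment 2 alone, array weights, the mean of the kept probes, the replicate block and the spermatid marker covariate. Mlkl and Camsap3 passed there too, so more of the 10 genes were called than in the main fit. Genes called between kd and wild type numbered 191 in spermatocytes, against 311 (cyclic loess), 113 (compared groups alone), 365 (experiment 2 alone), 469 (array weights), 340 (all kept probes), 524 (replicate block) and 294 (spermatid marker covariate), and 120 to 273 with 1 array left out, the lowest without kd replicate 1. In spermatids they numbered 232, against 364, 355 and 749 for groups alone, experiment 2 alone and array weights, 484 with the replicate block and 453 with the covariate. The kd effect differed between cell types for 6 genes, against 10 with cyclic loess, 2 with a stricter filter, 28 with array weights, 11 over all kept probes, 14 with the replicate block and 12 without the 4 spermatocyte arrays nearest to spermatids. Over all kept probes, 13432 (wild type) and 13329 (kd) probes differed between stages, beside 7600 and 7591 genes. Of the neighbours, 2 were called in tagged spermatocytes, against 1 with array weights, with the mean of the kept probes and without those 4 arrays, and 1 to 2 with 1 array left out. Of the family genes, 3 were called there, against 1 (lower, where the 3 were higher) with the groups alone and 5 with the replicate block, and 1 to 4 with 1 array left out (1 without tag replicate 1). In tagged spermatids 7 were called, against 12 with array weights and 11 with the replicate block. The replicate block, in which kd arrays share only a number with the wild type, brought Tmod4 in kd spermatids to an adjusted p of 0.029 by limma and changed no other kd call of the 10 genes. The causes of these shifts were not tested. The setting without the 4 arrays and the fit of experiment 1 alone were chosen after seeing the data.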
